A study of Mus musculus with 2 samples.

Results

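In co-cultures of intestinal crypts and fibroblasts from mice, 278 epithelial cells carried UMIs of a small set of marker genes and none of Lgr5. The marker genes were Nrn1, Ttr, Aqp4, Edn1, Nlrp6 and Selenbp1, and Lgr5 is a stem cell receptor gene. A UMI is a molecular tag that marks 1 captured mRNA molecule. The cells were chosen by these counts. An epithelial cell was kept when the 6 genes together gave at least 2 UMIs and at least 0.1% of its UMIs, Lgr5 gave 0, cell cycle genes (Mki67, Top2a, Cenpf, Cenpe, Hmmr, Nusap1, Ube2c) gave under 0.3%, and enterocyte genes (Fabp1, Fabp2, Apoa1, Apoa4, Sis) gave under 0.5%. A cell was epithelial when its summed Epcam, Krt8, Krt18, Krt19 and Cldn7 UMIs exceeded its summed Col1a1, Col1a2, Col3a1, Sparc and Dcn UMIs. The 278 selected cells were part of 1783 epithelial cells and of 2446 cells that passed the filters, from 2507 barcodes in all. The levels of the 6 genes, of Lgr5, of the limiting lists and of the epithelial and fibroblast genes named here follow from this choice and are given as a description.

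The cells came from 2 Drop-seq libraries, in which single cells are caught in droplets with barcoded beads that tag their mRNA. Both libraries were made from small intestine of C57BL6 mice aged 10 weeks, grown in the same organoid medium and released with trypsin and EDTA. In the condition called Ptger4-ON the co-cultures received the DMSO vehicle and grew as spheroids, and in Ptger4-OFF they received ONO-AE3-208, an inhibitor of the prostaglandin E2 receptor EP4 (gene Ptger4), dissolved in DMSO at 10 µM on every other day, and grew as budding organoids. Each condition was 1 library from 1 pool of 6 cultures. There is therefore no replicate error, no test between conditions was possible, and the library and the treatment cannot be told apart. All intervals are 95% intervals that cover counting error only. Where a pair of values is given, the first is from Ptger4-ON and the second from Ptger4-OFF. CPM is a gene's UMIs over all UMIs of the cells summed, on the usual scale of that name, and serves mainly to compare the same gene between groups of cells.

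EP4 is a receptor that raises cyclic AMP when prostaglandin E2 binds, and fibroblasts are a known source of that lipid in the gut. Crypt base stem cells carry Lgr5, a receptor for R-spondins that amplifies Wnt signalling, and their daughters become absorptive enterocytes or secretory goblet, Paneth, enteroendocrine and tuft cells. A separate fetal-like or regenerative program (Clu, Ly6a, Anxa1, S100a6) appears in injured or spheroid-forming epithelium. Nrn1 encodes neuritin, a membrane-anchored growth factor best known in neurons. Ttr encodes transthyretin, a carrier of thyroxine and of the retinol-binding protein. Aqp4 encodes a water channel, Edn1 the vasoconstrictor peptide endothelin-1, Nlrp6 an inflammasome sensor of gut epithelium and Selenbp1 a selenium-binding enzyme that oxidises methanethiol. Pigr, the transporter of polymeric IgA, and Ndrg1, a gene that responds to hypoxia, were named as further markers of these cells but took no part in their choice.

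The promoters of 3 of the marker genes are shown because Edn1 and Nlrp6 gave the most UMIs of the 6 rule genes in both libraries and Pigr is a marker that took no part in the rule. The sequences are from RefSeq on GRCm38.p6 and run from 250 bases before to 50 bases after the annotated start, on the plus strand. Capitals mark the letters of motifs found in either orientation, out of 6 short motifs searched on both strands, which were chosen with the results known. The motifs were the cyclic AMP response element in its short form TGACG and its full form TGACGTCA, the hypoxia response core ACGTG, the TCF/LEF core CTTTGA, the AP-1 site TGACTCA and the TEAD site CATTCC.
Edn1, chr13:42301226-42301525: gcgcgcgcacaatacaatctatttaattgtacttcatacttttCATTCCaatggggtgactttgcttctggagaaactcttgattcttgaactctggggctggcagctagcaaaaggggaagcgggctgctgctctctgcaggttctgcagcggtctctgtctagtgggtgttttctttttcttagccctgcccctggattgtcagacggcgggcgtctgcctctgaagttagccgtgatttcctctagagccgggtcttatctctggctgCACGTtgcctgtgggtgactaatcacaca
Nlrp6, chr7:140920652-140920951: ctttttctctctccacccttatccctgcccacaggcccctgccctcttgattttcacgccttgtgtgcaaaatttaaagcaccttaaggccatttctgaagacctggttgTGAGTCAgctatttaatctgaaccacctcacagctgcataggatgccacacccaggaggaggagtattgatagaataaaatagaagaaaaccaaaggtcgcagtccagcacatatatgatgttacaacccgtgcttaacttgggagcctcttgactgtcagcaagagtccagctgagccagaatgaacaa
Pigr, chr1:130826434-130826733: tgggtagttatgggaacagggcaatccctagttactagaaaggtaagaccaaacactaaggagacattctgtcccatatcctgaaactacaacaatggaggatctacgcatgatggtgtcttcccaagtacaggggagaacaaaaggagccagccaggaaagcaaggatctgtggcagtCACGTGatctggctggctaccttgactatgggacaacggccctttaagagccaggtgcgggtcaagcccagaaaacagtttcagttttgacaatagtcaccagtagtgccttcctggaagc
The Edn1 window held 1 TEAD match and 1 hypoxia core, the Nlrp6 window 1 AP-1 match, and the Pigr window a palindrome that counts as 2 overlapping hypoxia cores on opposite strands. The Selenbp1 window, also searched, held 1 hypoxia core. Over 32851 promoters of the same length, 19.6% held ACGTG, 14.7% CATTCC, 5.20% TGACTCA, 20.8% TGACG, 1.79% TGACGTCA and 16.0% CTTTGA. A match describes the letters in the window and says nothing of binding.

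The libraries held 908 and 1599 barcodes with 7408303 and 9490205 UMIs, and 882 and 1564 cells passed the filters. They shared 1 barcode, which was not that of a selected cell. Of the selected cells, 6 and 1 had a barcode 1 base away from a deeper barcode of the same library, and 6 and 15 had a barcode ending in N. Scrublet, a doublet caller, marked 6 and 4 cells, none of them selected, which is too few for the caller to be relied on. The selected cells summed to 278757 and 827072 UMIs, with medians of 3433 and 3097 per cell, and all were below 50000 UMIs. By marker lists, fibroblast genes summed to 208 and 132 CPM in the selected cells against 38550 and 39012 CPM in fibroblast-type cells, leukocyte genes to 0 and 2.4 CPM, and endothelial genes to 0 in both. The fibroblast list includes genes the rule used, so that contrast follows in part from the choice of cells.

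The selected cells made up 10.4% of epithelial cells in Ptger4-ON (61 of 584, Clopper-Pearson interval 8.08 to 13.2%) and 18.1% in Ptger4-OFF (217 of 1199, interval 15.96 to 20.4%). The share was higher in Ptger4-OFF and the intervals did not overlap. When each cell was first thinned to 1000 UMIs and the rule applied again, 55 of 526 (10.5%) and 189 of 1143 (16.5%) cells were selected. When Edn1 was not counted in the rule, 23 cells (3.94%, interval 2.51 to 5.85%) and 172 cells (14.35%, 12.4 to 16.5%) were selected, so the gap between the libraries was wider. These shares describe the cells captured after trypsin release.

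Many selected cells lay near the limits of the rule. The median cell had 5 and 6 UMIs of the 6 genes, or 0.147% and 0.180% of its UMIs, with highest values of 30 and 62 UMIs. Exactly 2 UMIs were found in 11 and 20 of them, and 32 and 73 cells were below 0.15%. Just outside, 49 and 69 epithelial cells that met the other limits had 1 UMI of the 6 genes. A further 76 and 98 had 2 or more UMIs but fell below 0.1%.

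The label for these cells, named after Nrn1 and Ttr, fitted the Ptger4-OFF cells better than the Ptger4-ON cells. In Ptger4-OFF, 153 of 217 cells had a UMI of Nrn1 or Ttr. In Ptger4-ON, 36 of 61 cells (59.0%) had neither, and Edn1 carried the choice there: it gave 55.3% of the marker UMIs against 28.4% in Ptger4-OFF, and it was the only marker gene with a UMI in 15 and 9 cells. The cells are therefore called the marker-selected cells below, without a cell type name.

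Gene by gene, Nrn1 UMIs were found in 12 of 61 (19.7%) and 100 of 217 (46.1%) selected cells, and its summed level was 89.7 and 199.5 CPM. Ttr was found in 31.1% and 47.9% of them, and Aqp4 in 37.7% and 47.5%. Nlrp6 was the most widely found marker gene in Ptger4-OFF, with UMIs in 63.9% and 71.9% of cells, and Selenbp1 was found in 16.4% and 40.1%. Edn1 went the other way, with UMIs in 73.8% and 53.0% of cells and a level of 911 and 549 CPM. After thinning each cell to 1000 UMIs, Nrn1 was left in 5.45% and 18.7% and Edn1 in 50.9% and 29.2%, in the same order between libraries. In the fibroblast-type cells, which should lack both genes and whose median depths were 4591.5 and 4495 UMIs, the thinned shares were 0 and 0.852% for Nrn1 and 0.752% and 1.70% for Edn1. Non-cycling epithelial cells with an Lgr5 UMI, chosen without the 6 genes, carried them too. After thinning, Ttr was in 11.4% and 20.9% of those cells against 12.7% and 23.0% of the selected cells. Aqp4 was in 5.68% and 20.9% against 14.5% and 19.6%, and Nlrp6 in 18.2% and 25.2% against 30.9% and 37.3%. Selenbp1 was in 6.82% and 7.87% against 7.27% and 18.2%. In the Lgr5-positive cells Nrn1 was in 2.27% and 9.06% and Edn1 in 12.5% and 18.9%. Nrn1 occurred together with Ttr in 6 and 51 selected cells and with Nlrp6 in 11 and 76.

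**Figure D1:**
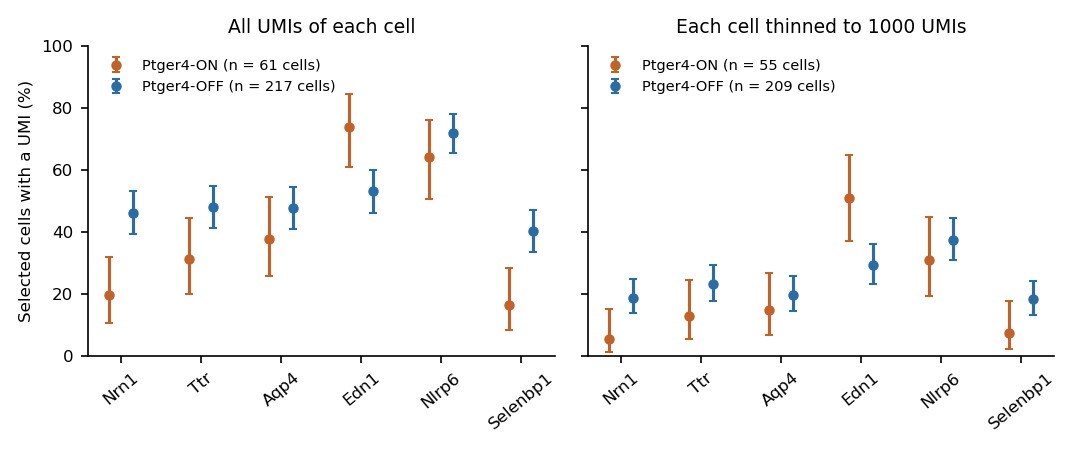
Share of the marker-selected cells with at least 1 UMI of each of the 6 rule genes, in percent, before (left) and after (right) thinning each cell to 1000 UMIs. Points are 1 library each and bars are Clopper-Pearson 95% intervals of counting error. In both panels Edn1 is the gene found in the largest share of Ptger4-ON cells, while Nrn1 and Selenbp1 are higher in Ptger4-OFF.

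The marker-selected cells were not uniform, and a split by Edn1 showed this in both libraries. The split was made after the values had been seen, and its own genes are no result. Cells with a UMI of Nrn1, Ttr or Aqp4 numbered 31 and 184. Cells with Edn1 UMIs but none of those numbered 24 and 27, and 6 and 6 cells had Nlrp6 or Selenbp1 UMIs only. The Edn1 cells without the others carried the fetal-like and regenerative list at 33227 CPM (interval 32059 to 34427) and 32219 CPM (31175 to 33289). The cells with Nrn1, Ttr or Aqp4 carried it at 8891 CPM (8460 to 9339) and 3386 CPM (3251 to 3525). The level was thus close in the Edn1 cells of both libraries and several-fold lower in the cells with Nrn1, Ttr or Aqp4, with the lowest value in Ptger4-OFF. The program was also found outside the selection. After thinning, 60% and 29.7% of all selected cells had at least 5 UMIs of this list. In epithelial cells that met every limit except that on marker UMIs, the shares were 72.1% and 36.6%, with overlapping intervals. In the Lgr5-positive cells they were 58.0% and 24.0%. The Edn1 cells alone were not compared with these groups.

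Single genes of that program followed the split. Clu, which encodes clusterin and marks stem cells that appear after injury, had 5300 and 3116 CPM in the Edn1 cells against 597 and 21.5 CPM in cells with Nrn1, Ttr or Aqp4, where 100 of the 107 Ptger4-ON UMIs were in 1 cell. S100a6, a calcium-binding protein gene, had 6443 and 5507 CPM against 1645 and 222 CPM. Of its 615 UMIs in the Ptger4-OFF Edn1 cells, 250 were in 1 cell. Anxa1, an annexin of wound repair, had 1502 and 1889 CPM against 251 and 37.2 CPM, with 73 of the 138 Ptger4-ON UMIs of the Edn1 cells in 1 cell. The keratin gene Krt23 had 1175 and 528 CPM against 112 and 14.3 CPM. S100a6 and Anxa1 were picked for this description after their values were seen. The program was not in every Edn1 cell. Clu UMIs were found in 13 of 24 and 9 of 27 of them, and 1 cell gave 172 and 168 of the 487 and 348 Clu UMIs. After thinning, Clu was in 27.3% and 5.26% of all selected cells. It was in 43.7% and 16.8% of the epithelial cells that met every limit except that on marker UMIs, and only the Ptger4-OFF intervals did not overlap.

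A growth factor gene and a coagulation gene were also higher in the Edn1 cells, and Pigr was lower. Areg, the gene of the EGF receptor ligand amphiregulin and a member of the list above, had 5126 and 3313 CPM in Edn1 cells against 1300 and 644 CPM. F3, the gene of tissue factor and a YAP target, had 1567 and 2301 CPM against 284 and 83.0 CPM. Pigr had 664 and 842 CPM against 1534 and 1415 CPM. Smoc2, a gene of crypt base cells, had 65.3 and 107.5 CPM in Edn1 cells against 94.8 and 295 CPM in the others, on 6 and 12 UMIs, and only the Ptger4-OFF intervals did not overlap. Targets of YAP and TEAD, effectors of the Hippo pathway, summed to 2558 and 3376 CPM in Edn1 cells and to 775 and 512 CPM in the others, and F3 gave most of the Edn1 cells' sum. Cyr61, also a YAP target, had 120 and 197 CPM in Edn1 cells against 156 and 217 CPM. Median depth was lower in the Edn1 cells, at 2460.5 and 2099 UMIs against 5426 and 3195.5, and its part in these values was not tested.

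**Figure D2:**
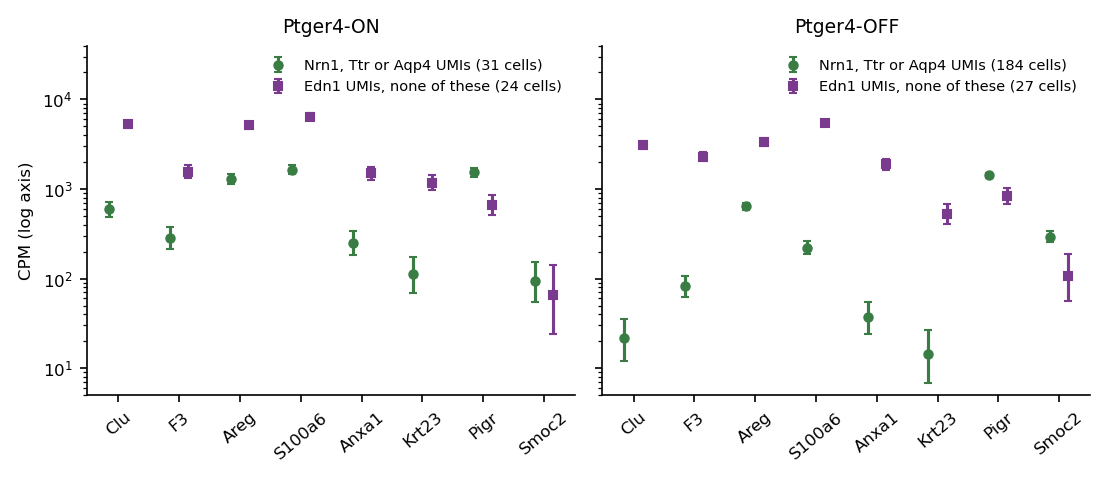
Summed level of 8 genes (CPM, log axis) in the marker-selected cells with Nrn1, Ttr or Aqp4 UMIs (circles) and in those with Edn1 UMIs and none of these (squares), for each library. Bars are exact Poisson 95% intervals of counting error; Clu, F3, Areg, S100a6, Anxa1 and Krt23 are higher in the Edn1 cells and Pigr is lower, in both libraries.

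Most UMIs of the goblet list came from few cells. Members with at least 1% of their UMIs from the goblet, Paneth and enteroendocrine lists, a limit set after seeing the data, numbered 11 of 61 and 8 of 217. In Ptger4-ON these 11 cells held 714 of the 725 UMIs of Spink4 and 742 of the 841 UMIs of Tff3, both goblet cell genes. Of 326 UMIs of the lectin gene Zg16 in Ptger4-ON, 317 were in 1 cell. Of 353 UMIs of the hormone gene Cck in Ptger4-OFF, 339 were in 1 cell. After thinning to 1000 UMIs, at least 5 UMIs of the goblet list were found in 15 of 55 and 5 of 209 selected cells, of the Paneth list in 9 and 4, of the enteroendocrine list in 0 and 4, and of the tuft list in 0 and 0. The goblet shares were 27.3% and 2.39%, and the Paneth shares 16.4% and 1.91%. In epithelial cells that met every limit except that on marker UMIs, they were 26.9% and 13.9% for goblet and 16.8% and 11.3% for Paneth.

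The non-cycling Lgr5-positive cells (89 and 256) met the same cycling and enterocyte limits, had an Lgr5 UMI and needed no marker UMIs. Lgr5-positive cells had median depths of 10636 and 5279 UMIs, well above those of the selected cells. After thinning to 1000 UMIs, 21 of 88 (23.9%) and 84 of 254 (33.1%) of the Lgr5-positive cells still had an Lgr5 UMI. At 1000 UMIs most of the Lgr5-positive cells thus had no Lgr5 UMI, and detection at the depth of the selected cells was not measured. The crypt stem cell list gave no common direction between the groups. Of 14 measured, 7 were higher and 7 lower in the selected cells in each library, with medians of -0.01 and -0.01 on the log2 scale. The 14 include Lgr5 itself, which the rule fixed as lower in the selected cells, so the counts and medians hold that gene too. Of all 8460 genes compared, 0.177% were at least 2-fold higher and 0.390% at least 2-fold lower in the selected cells in both libraries, which is 15 and 33 genes.

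Single stem cell genes varied around equal levels. Smoc2, which encodes a secreted matrix protein of the crypt base, had 82.5 and 270 CPM in the selected cells against 120 and 253 CPM in Lgr5-positive cells, ratios of 0.687 (interval 0.425 to 1.06) and 1.07 (0.907 to 1.25). Slc12a2, a sodium, potassium and chloride cotransporter gene of crypt cells, had 865 and 1111 CPM, with ratios of 1.07 (0.932 to 1.23) and 1.01 (0.934 to 1.09). Ascl2, the Wnt-driven factor of stem cell fate, had only 6 and 17 UMIs in the selected cells and ratios of 0.659 (0.231 to 1.53) and 0.490 (0.273 to 0.831). Only the Ptger4-OFF ratio of Ascl2 had an interval below 1. Olfm4, a secreted stem cell marker, had 3 and 19 UMIs, and Axin2, a Wnt feedback gene, 11 and 42.

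Several genes differed from Lgr5-positive cells in the same direction in both libraries. Areg was 3.46-fold (interval 3.15 to 3.80) and 1.95-fold (1.78 to 2.13) higher than in Lgr5-positive cells. F3 was 2.41-fold (2.03 to 2.85) and 2.26-fold (1.93 to 2.64) higher, but 257 of its 315 Ptger4-OFF UMIs were in 8 Edn1 cells. In the cells with Nrn1, Ttr or Aqp4, F3 had 284 and 83.0 CPM against 292 and 169 CPM in Lgr5-positive cells. Klf6, an immediate-early transcription factor gene, was 2.37-fold (2.05 to 2.74) and 1.54-fold (1.38 to 1.72) higher, and Ndrg1 1.81-fold (1.45 to 2.25) and 1.36-fold (1.24 to 1.502). Mmp7, the Paneth cell protease that activates defensins, was 1.95-fold (1.73 to 2.20) and 3.87-fold (3.26 to 4.63) higher in the Lgr5-positive cells, and Ly6a, the gene of Sca-1, 2.65-fold (2.14 to 3.32) and 1.84-fold (1.48 to 2.31). Of 20 G1/S genes of the cell cycle, 18 and 19 were lower in the selected cells, but the rule itself limited cycling UMIs in both groups. The share of all genes lower by any amount is not set beside this count. The count is therefore a description only and no result about the list.

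Against all other epithelial cells (523 and 982), which include cycling and enterocyte-like cells, 0.445% of 10326 genes were at least 2-fold higher (46 genes) and 1.80% at least 2-fold lower (186 genes) in the selected cells in both libraries. The lower genes included condensin genes of dividing cells such as Smc2 (2.14-fold and 2.59-fold higher in the other cells), which the rule's limit on cycling bears on. Among genes with at least 100 CPM in the selected cells of both libraries, those with the largest ratios shared by the libraries included Areg (2547 and 1002 CPM, 2.66-fold and 1.73-fold), the tight junction claudin gene Cldn4 (1.92-fold and 1.61-fold), Ndrg1 (1.86-fold and 1.61-fold), the cofactor gene Cited2 (1.74-fold and 1.56-fold), Klf6 (1.87-fold and 1.54-fold) and the junction scaffold gene Cgn (1.48-fold and 1.51-fold). On the lower side were Prap1, a lipid-binding gene of absorptive cells (2.41-fold and 2.43-fold higher in the other cells), and the glutathione transferase gene Gsta1 (1.91-fold and 3.15-fold).

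Several of these genes stood near or below 0 on the log2 scale against marker-low cells, in the case of Areg only in Ptger4-OFF. Marker-low cells met every limit of the rule except that on the marker UMIs. They numbered 223 and 257, with median depths of 3540 and 2833 UMIs. Against them, 0.0904% of 7746 genes (7 genes) were at least 2-fold higher and 1.29% (100 genes) at least 2-fold lower in the selected cells in both libraries. Areg stood at 0.34 and -0.02 on the log2 scale, Cldn4 at -0.16 and -0.42, Klf6 at 0.08 and 0.08 and F3 at -1.005 and -0.78. Ndrg1 (0.75 and 1.04), Cited2 (0.70 and 0.63), the matricellular gene Cyr61 (0.58 and 0.84) and Jmjd6, an oxygenase gene (0.99 and 0.58), stayed above 0 in both libraries. Prap1 (-2.09 and -2.14) and Gsta1 (-1.25 and -1.90) stayed below 0. With Edn1 left out of the rule, the ratio of F3 to other epithelial cells turned to -1.47 and -1.24 and that of Areg was 0.13 and 0.35, while Ndrg1 had 1.71 and 0.97 and Cited2 0.87 and 0.59.

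Pigr and Ndrg1, the markers outside the rule, were both above the marker-low cells in summed level, but in different measure. Pigr had 1241 and 1340 CPM in the selected cells, 670 and 1129 CPM in marker-low cells, 883 and 1241 CPM in Lgr5-positive cells and 279 and 799 CPM in enterocyte-like cells. Against marker-low cells the ratio was 1.85 (interval 1.63 to 2.10) in Ptger4-ON and 1.19 (1.09 to 1.29) in Ptger4-OFF. Ndrg1 had 402 and 796 CPM, against 240 and 388 CPM in marker-low cells and 374 and 1476 CPM in enterocyte-like cells. After thinning, Pigr was in 65.5% and 67.5% of selected cells against 38.6% and 60.5% of marker-low cells, and the Ptger4-OFF intervals overlapped. Ndrg1 was in 23.6% and 48.3% of selected cells against 17.8% and 22.3% of marker-low cells, and the Ptger4-ON intervals overlapped. Ndrg1 was not limited to epithelium: its UMIs were found after thinning in 24.8% and 24.1% of fibroblast-type cells. In Ptger4-ON the share in selected cells was thus no higher than in the fibroblasts.

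**Figure D3:**
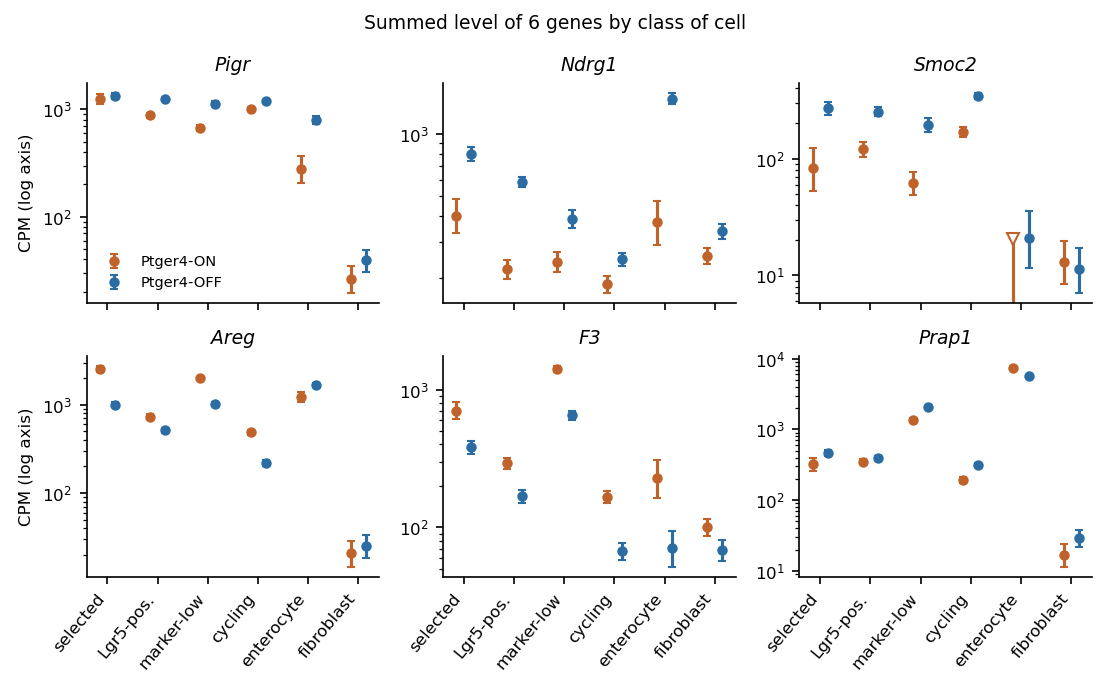
Summed level of Pigr, Ndrg1, Smoc2, Areg, F3 and Prap1 (CPM, log axis) in the marker-selected cells, the 4 other epithelial classes and the fibroblast-type cells of each library. Bars are exact Poisson 95% intervals of counting error, and an open triangle marks the upper limit where 0 UMIs were counted; F3 is higher in marker-low than in selected cells, and Prap1 is highest in enterocyte-like cells.

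Clustering of the epithelial cells without the rule genes placed the selected cells in several clusters rather than in 1 of their own. The clusters are described by their leading genes and given no cell type name. A cluster led by Otc, Ifitm3 and Smoc2 held 18 of the 61 and 98 of the 217 selected cells. A cluster whose leading genes include P4ha2, Ndrg1 and Ero1l, all known to respond to hypoxia, held 11 and 81. A cluster led by Prl2c3, Msln and Anxa8 held 13 and 8, one led by the cell cycle genes Kif15 and Clspn 8 and 16, and one led by the Paneth and goblet genes Retnlb, Defa17 and Spink4 8 and 3. Selected cells made up 32.4% (11 of 34) and 45% (81 of 180) of the hypoxia-gene cluster and 12.5% and 19.3% of the cluster led by Otc. Lgr5-positive cells were spread over the same clusters, with 15 and 98 in the cluster led by Otc, 10 and 51 in the hypoxia-gene cluster and 34 and 70 in the cluster led by Kif15.

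**Figure D4:**
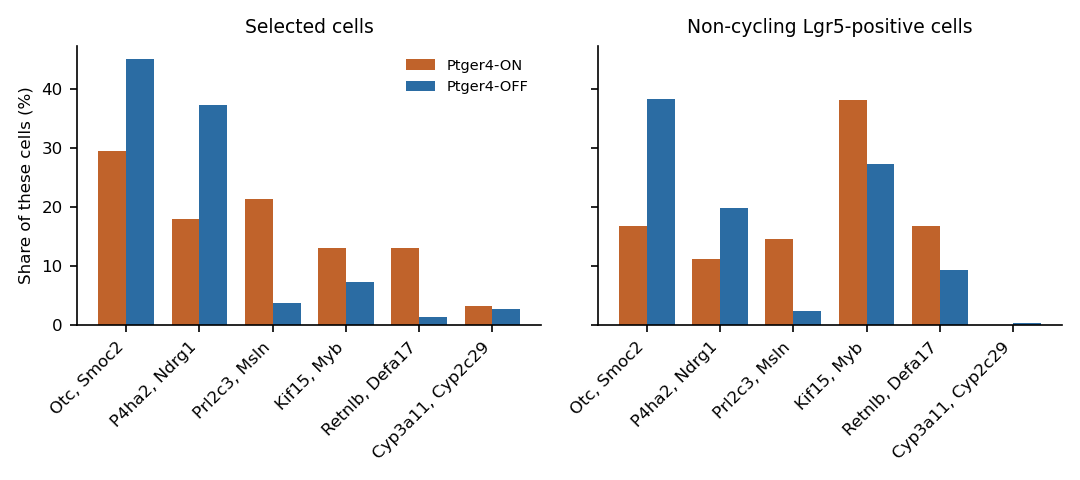
Share of the marker-selected cells (left) and of the non-cycling Lgr5-positive cells (right) in each of 6 clusters, in percent of these cells per library. Clusters were made without the rule genes and are named by leading genes; both kinds of cells fall into the same clusters, with the cluster led by Otc and Smoc2 the largest for Ptger4-OFF in both panels.

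Between the libraries, 2.64% of 4133 genes were at least 2-fold higher in the Ptger4-OFF selected cells (109 genes) and 2.56% at least 2-fold higher in the Ptger4-ON selected cells (106 genes). The median over all these genes was 0.02 on the log2 scale, and 51.1% of them were higher in Ptger4-OFF by any amount. Genes below 50 UMIs in both libraries together were left out. In the fetal-like and regenerative list all 20 measured genes were lower in Ptger4-OFF, 15 of them at least 2-fold, and a median log2(OFF/ON) of -1.37. Clu was 4.86-fold higher in Ptger4-ON (interval 4.25 to 5.55), at 2131 and 439 CPM. Krt23 was 5.50-fold higher (4.08 to 7.49) and Il1rn, whose product blocks the interleukin-1 receptor, 4.11-fold (2.41 to 7.09). Areg was 2.54-fold higher (2.30 to 2.81), at 2547 and 1002 CPM.

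The same list lay the same way in cells outside the selection, so the difference was not one of the selected cells alone. Its median was -1.59 in the other epithelial cells, -1.27 in the Lgr5-positive cells and -1.21 in the marker-low cells. Whether the selected cells differed from these was not tested. In selected cells with Nrn1, Ttr or Aqp4 UMIs the median was -2.52, and with Edn1 left out of the rule it was -1.33, with Clu at -0.97. The -2.52 rests on 31 Ptger4-ON cells, in which some genes of the program came mostly from single cells. There, 1 cell gave 100 of 107 Clu UMIs, 1 gave all 27 Msln UMIs and 1 gave 122 of 295 S100a6 UMIs. Ly6a was more spread, with 11 of 30 UMIs in 1 cell. The part of such cells in the median was not tested. Tight junction and keratin genes, which seal and stiffen the epithelial sheet, were lower in Ptger4-OFF for 13 of 15 measured genes (median -0.55). Of all genes, 51.1% were higher there. The list includes the epithelial rule genes Krt8, Krt18, Krt19 and Cldn7. It summed to 18480 and 20014 CPM in the Edn1 cells and to 10748 and 5801 CPM in cells with Nrn1, Ttr or Aqp4. The Edn1 cells were 39.3% and 12.4% of the selected cells, and the part of this mix in the list's values was not tested. Cldn4 had 556 and 180 CPM and the junction adhesion gene F11r 226 and 81.0 CPM.

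**Figure D5:**
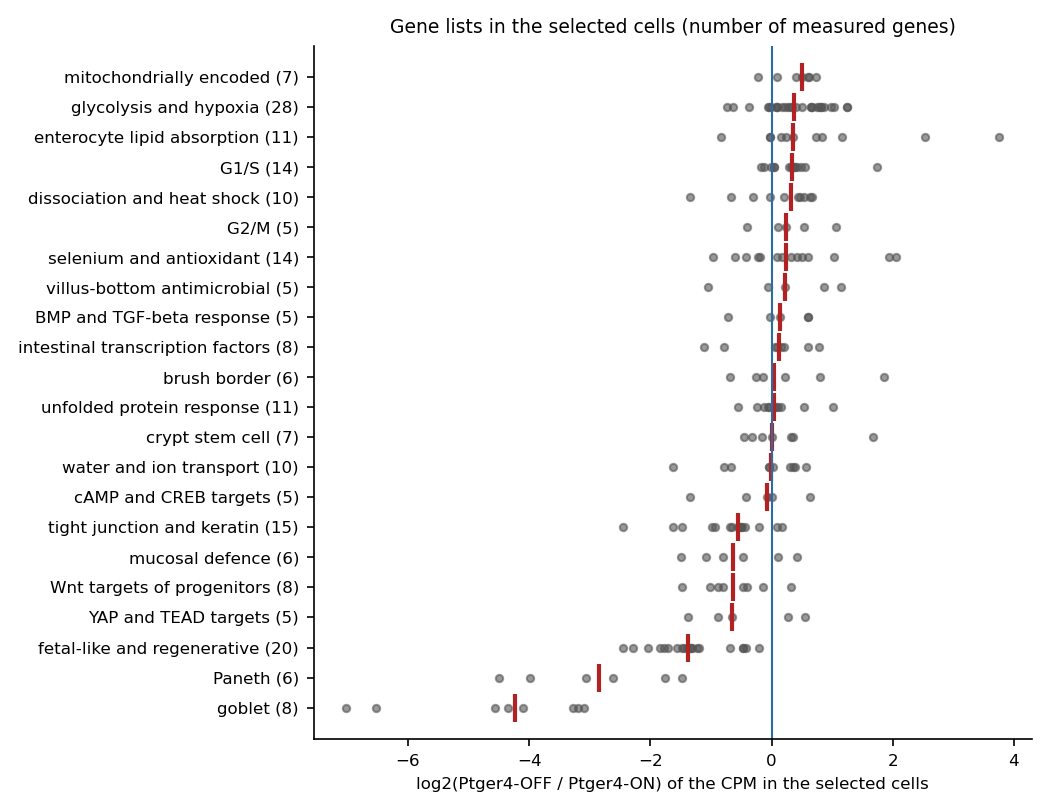
log2(Ptger4-OFF/Ptger4-ON) of the level of each measured gene (grey points) in the marker-selected cells for gene lists with at least 5 measured genes. The red bar is the median of a list and the vertical blue line the median of all 4133 genes (0.02); the fetal-like, Paneth and goblet lists lie lowest, and the last pair rest on few cells.

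Genes of the crypt base had no common direction, while most Wnt targets were lower in Ptger4-OFF. Of 7 measured stem cell genes, 4 were higher and 3 lower in Ptger4-OFF (median 0.01). Smoc2 was the exception in size, 3.27-fold higher in Ptger4-OFF (interval 2.12 to 5.26), on 23 and 223 UMIs. It was also 3.17-fold (2.43 to 4.16) higher in marker-low cells, 2.11-fold (1.78 to 2.50) higher in Lgr5-positive cells and 2.13-fold (1.94 to 2.33) in all other epithelial cells. Without Edn1 in the rule, Smoc2 stood at 0.97 on the log2 scale instead of 1.68. Wnt targets of progenitors were lower in Ptger4-OFF for 7 of 8 measured genes (median -0.64), led by the cyclin D1 gene Ccnd1 at 621 and 222 CPM (2.79-fold higher in Ptger4-ON, 2.25 to 3.45) and the progenitor factor genes Sox4 at 804 and 399 CPM and Sox9 at 269 and 146 CPM. In the same setting Ccnd1 stood at -0.35 instead of -1.48 and the median of the list was -0.21.

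Genes of glycolysis and the hypoxia response were higher in Ptger4-OFF for 22 of 28 measured genes, with a median of 0.37, against 51.1% of all genes higher by any amount. Car9, the carbonic anhydrase induced by hypoxia, had 276 and 567 CPM (2.05-fold, interval 1.61 to 2.65). Pdk1, the kinase that diverts pyruvate from mitochondria, had 89.7 and 216 CPM (2.41-fold, 1.58 to 3.83). The collagen hydroxylase gene P4ha2 had 8 and 59 UMIs (2.49-fold, 1.18 to 6.02), and Ndrg1 was 1.98-fold higher (1.62 to 2.44). When Edn1 was not counted, Ndrg1 stood at 0.42 on the log2 scale instead of 0.98 and Car9 at 0.56 instead of 1.03. The list's median was 0.39 in Lgr5-positive cells, 0.27 in all other epithelial cells and 0.16 in marker-low cells. The list's median was 0.15 in the selected cells in that setting, and in cycling epithelial cells it was -0.10. Mitochondrially encoded genes were higher for 6 of 7 (median 0.51), such as mt-Nd1 at 4122 and 6839 CPM, against 0.61 in the other epithelial cells and 0.22 with Edn1 left out, and the median mitochondrial share per selected cell was 2.58% and 3.70%.

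Several metabolic genes were among those with the largest ratios on the Ptger4-OFF side. Otc, a urea cycle enzyme gene of gut epithelium, had 9 and 157 UMIs (5.88-fold, interval 3.02 to 13.1). Acot1, a fatty acid thioesterase gene, had 7 and 128 UMIs (6.16-fold, 2.91 to 15.6), and Hsd17b13, a lipid droplet enzyme gene, 11 and 154 UMIs (4.72-fold, 2.56 to 9.65). The carboxylesterase gene Ces2a had 5 and 122 UMIs (8.22-fold, 3.43 to 25.8). Ctrb1, a chymotrypsinogen gene, had 2 and 87 UMIs, 77 of the latter in 1 cell. The enterocyte lipid list had 8 of 11 measured genes higher (median 0.36), with the chylomicron assembly gene Mttp at 53.8 and 125 CPM (2.31-fold, 1.34 to 4.28). Without Edn1 in the rule, Otc stood at 2.36 on the log2 scale instead of 2.48, Acot1 at 1.68 instead of 2.53 and Mttp at 0.20 instead of 1.17. Outside the selection the lipid list's median was 0.299 in other epithelial cells, 0.529 in marker-low cells and 0.212 in Lgr5-positive cells. The ratio of selected to other epithelial cells was 1.35 and 1.34 for Hsd17b13, 0.201 and 0.247 for Ces2a and 0.918 and 0.753 for Mttp. A ratio alike in both libraries, as for Hsd17b13, means that a similar rise lay in the other epithelial cells. The ratio went from 0.679 to 1.18 for Otc and from 0.745 to 1.499 for Acot1. The rule had removed cells rich in Fabp1, Fabp2, Apoa1, Apoa4 and Sis.

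Antioxidant genes were mixed, with 9 of 14 measured genes higher in Ptger4-OFF (median 0.25), a count that includes the rule gene Selenbp1. That gene had 46.6 and 199.5 CPM. The glutathione transferase genes Gstm3 (39.5 and 157 CPM, 3.98-fold, interval 2.15 to 8.18) and Gstm1 (100.5 and 208 CPM, 2.07-fold, 1.38 to 3.21) were higher in Ptger4-OFF. Gclc, which starts glutathione synthesis, was lower, at 151 and 77.4 CPM. Cell cycle genes, limited by the rule, were mostly higher: 11 of 14 G1/S genes (median 0.34) and 4 of 5 G2/M genes (median 0.25). The G1/S median without Edn1 in the rule was -0.10. The replication helicase gene Mcm5 had the largest G1/S ratio, at 6 and 64 UMIs, but it turned to -0.68 on the log2 scale when the rule was applied after thinning.

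Goblet and Paneth genes were lower in the Ptger4-OFF selected cells, and these values rested on few cells. All 8 measured goblet genes were at least 2-fold lower (median -4.23) and all 6 Paneth genes (median -2.84). Spink4 had 2601 and 110 CPM, the mucin gene Muc2 44 and 6 UMIs, the disulfide isomerase gene Agr2 1155 and 66.5 CPM, and Mmp7 1058 and 172 CPM. Defa24, an alpha-defensin gene, had 1848 and 220 CPM, and since alpha-defensin genes are near-identical copies its value is uncertain. Without the 11 and 8 secretory-rich cells the goblet median was -1.16 and the Paneth median 0.12. Muc2 then had 0 and 4 UMIs and Agr2 5 and 24, which gives neither a direction, while Defa24 stood at 0.28 and Spink4 at -0.27. The enteroendocrine genes Cck (1 and 353 UMIs) and Chgb (2 and 138 UMIs) rested on few cells too. Of the Chgb UMIs in Ptger4-OFF, 58 were in 1 of 7 cells, and without the secretory-rich cells Chgb had 2 and 6 UMIs.

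Of 6 measured genes of mucosal defence, 2 were higher and 4 lower in Ptger4-OFF (median -0.63). Pigr differed little, at 1.08-fold (interval 0.956 to 1.22). Of 5 measured antimicrobial genes of the villus bottom, which include the rule gene Nlrp6, 3 were higher and 2 lower (median 0.22). Of these, Ccl25, the chemokine that draws lymphocytes to the small intestine, was 2.24-fold higher in Ptger4-OFF (1.48 to 3.53), at 93.3 and 209 CPM, and 2.45-fold (2.19 to 2.73) in the other epithelial cells. Reg3g, an antibacterial lectin gene, had 502 and 242 CPM, but 0.99 on the log2 scale in the other direction without the secretory-rich cells. Il18, a cytokine matured by inflammasomes, was named after its values were seen and had 9 and 6 UMIs, and Reg1 had 0 in both. The chemokine gene Cxcl16 had 34 and 36 UMIs (122 and 43.5 CPM), and its direction turned to 0.14 with Edn1 left out.

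Partners of the marker genes were sparse in the selected cells. In the endothelin pathway, Edn2 had 2 and 16 UMIs, Edn3 0 and 1, and the receptor genes Ednra and Ednrb 0 in both libraries, with exact Poisson upper limits of 13.2 and 4.46 CPM. The converting enzyme genes Ece1 and Ece2 had 21 and 41 and 6 and 34 UMIs. In fibroblast-type cells, Ednra had 13 and 14 UMIs and Ednrb 1 and 4. Of the retinoid genes, Rdh10, which oxidises retinol, had 230 and 128 CPM and the related dehydrogenase gene Rdh11 104 and 167 CPM. The retinol-binding protein genes Rbp2 and Rbp4 had 1 and 7 and 0 and 1 UMIs, and the receptor gene Rara 4 and 28.

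The target of the inhibitor was expressed at a low level. Ptger4 had 12 UMIs in 10 of 61 cells and 24 UMIs in 23 of 217 cells, or 43.0 and 29.0 CPM, against 4 and 1 UMIs (2.18 and 0.539 CPM) in fibroblast-type cells. The ratio to other epithelial cells was 1.66 (interval 0.836 to 2.99) and 0.992 (0.621 to 1.52), so no difference was detectable at this depth. Of the other prostaglandin E2 receptors, Ptger2 and Ptger3 had 0 UMIs in the selected cells of both libraries and Ptger1 had 0 and 2. Ptgs2, the inducible cyclooxygenase of prostaglandin synthesis, had 2 and 7 UMIs here against 763 and 627 CPM in fibroblast-type cells. Cyclic AMP and CREB target genes had a median log2(OFF/ON) of -0.08 over 5 measured genes, which was 1.03 when the rule was applied after thinning, with Areg at -1.35 and Fos, an immediate-early factor gene, at 768 and 1190 CPM.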

How the data were processed

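The 2 Drop-seq count tables hold 1 library for each condition. The deposited values are raw UMI counts for each gene and barcode, made from reads aligned with STAR 2.6 to mm10, per the submitters' processing notes. Which program counted the UMIs, with which annotation and whether by strand, is not given in the sources used here. A barcode was kept when it had 300 or more genes and no more than 20% of its UMIs were mitochondrial. Counts were summed over the cells of a class and divided by the total (pandas 2.3.3 and scipy 1.17.1 under Python 3.11.15, with numpy 2.4.6). Levels have exact Poisson intervals, ratios exact conditional binomial intervals and shares Clopper-Pearson intervals, all at 95% and for counting error only. Genes needed 50 UMIs over the groups compared, 0.5 was added to each count on the log2 scale, and a gene was counted at 2-fold or more. With 1 library for each condition no test was made and no p-value is given. Cells were clustered without the rule genes with scanpy 1.11.5 and igraph 0.11.9 at 1 setting. TMM factors came from edgeR 4.0.16 as an alternative scaling. The sums and ratios were tested on simulated data. Figures were drawn with matplotlib 3.10.9.

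The members and gene lists were chosen with earlier results of these data known. Named genes were those with the largest ratios between libraries (at least 100 CPM in 1 library) or against other epithelial cells (at least 100 CPM in both), the rule genes and further markers, up to 4 genes from each list with the largest ratios, and the members of the stem, retinoid, endothelin and prostaglandin lists. Other names were chosen after their values were seen, as were the split by Edn1, the 1% limit for secretory-rich cells and the motifs. Doublets were called but kept.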

Additional observations from a re-analysis of the deposited data

Results flagged for a closer look

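For 3 goblet or Paneth genes the ratio of the selected cells to the other epithelial cells had opposite signs in the 2 libraries. The genes were kept where both ratios passed 2-fold, both intervals excluded 1 and at least 50 UMIs were counted, conditions set after seeing the data. The difference between the libraries was not tested. Zg16, a goblet cell lectin gene, stood at 2.08 in Ptger4-ON and -2.03 in Ptger4-OFF on the log2 scale, and 317 of its 326 UMIs in the Ptger4-ON selected cells were in 1 cell. Ang4, an antimicrobial ribonuclease gene of Paneth cells, stood at 1.27 and -3.57, and 56 of 79 UMIs in Ptger4-ON were in 1 of 7 cells. Fcgbp, a goblet cell mucus gene, stood at 1.05 and -1.38, and 46 of 93 UMIs in Ptger4-ON were in 1 of 12 cells.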

How the results depend on the processing

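No paired analysis was possible because each condition has 1 library, and for the same reason no replicate could be left out. Other settings numbered 15, and 3 more were chosen after seeing the data. The share of selected cells was higher in Ptger4-OFF under each setting that bears on the choice of cells. Leaving Edn1 out gave 3.94% and 14.35%, and keeping cells with Nrn1, Ttr or Aqp4 gave 5.31% and 15.35%. Counts of 2-fold genes (109 higher in Ptger4-OFF, 106 in Ptger4-ON) became 45 and 30 of 956 when the rule followed thinning, 354 and 366 with a minimum of 20 UMIs, 43 and 44 with 100 UMIs, 217 and 207 with equal weight for each cell, and 164 and 69 of 2844 without Edn1. With Nrn1, Ttr or Aqp4 cells alone, 68 were higher in Ptger4-ON. Against other epithelial cells, the 46 higher and 186 lower genes became 19 and 68 after thinning and 7 and 100 against marker-low cells. The 46 became 170 with 20 UMIs, 15 with 100 UMIs and 28 with Nrn1, Ttr or Aqp4 cells alone. Among values of at least 2-fold, signs turned for Mcm5 (-0.68 after thinning), Smc2 (0.080) and Smc4 (0.081) in Ptger4-ON against marker-low cells, and Cxcl16 (0.14 without Edn1). Without the secretory-rich cells they turned for Muc2 (1.45), Agr2 (0.43), Defa17 (0.24), Chgb (-0.34), Reg3g (0.99), Defa24 (0.28) and the Paneth median (0.12), where Muc2 (0 and 4 UMIs), Agr2 (5 and 24) and Chgb (2 and 6) are too sparse to give a direction. Fewer genes reach a higher UMI minimum by construction, and the number of genes tested also changes with the cells kept. Counts given without that number are not shares and cannot be compared as such between settings. For the other shifts the cause was not tested. The fetal-like median stayed between -2.52 and -1.31 over all settings. Depth limits genes with few UMIs in the 61 Ptger4-ON cells.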
